A study of Homo sapiens with 11 samples.

Results

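Metallothioneins and genes of zinc transport were followed through RNA sequencing of MOLM-13. This human line was derived from acute myeloid leukemia and carries a KMT2A rearrangement. The 9 genes, of 38557 in the annotation used for counting, are 5 metallothioneins (MT2A, MT1E, MT1F, MT1G and MT1X), the zinc-sensing transcription factor MTF1 and 3 zinc transporters (SLC30A1, SLC39A8 and SLC39A10). They were picked by symbol, and the metallothioneins were picked because their counts had been seen to be lower in both treatments than in the solvent. Comparisons with DMSO are therefore given for the 9 genes as a description, without a test. All 11 libraries came from MOLM-13 cells after 72 h of exposure. Cells of 4 libraries received DMSO (the solvent) and those of 4 others MI-503 at 1 µM, which blocks Menin, a partner of KMT2A on chromatin. For the last 3, PR-957 at 100 nM was given beside MI-503 at 1 µM, and PR-957 inhibits PSMB8, a subunit of the immunoproteasome. This last group, replicates 1, 2 and 4, is called the combination. A group with PR-957 alone is not among those labelled, so its addition to MI-503 is the one comparison made for PR-957, and the data stem from 1 cell line. The labels do not tell whether replicates were separate cultures, so p-values measure the spread between these libraries, which may be technical.

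Metallothioneins are small cysteine-rich proteins that bind zinc and copper and buffer the free metal in the cell. When zinc in the cell rises, MTF1 binds short metal response elements in the promoters of metallothionein genes and of SLC30A1 and activates them. Proteins of the SLC30 family carry zinc out of the cytosol, and SLC30A1 is the one that exports it across the cell surface. Proteins of the SLC39 family, such as SLC39A8 and SLC39A10, carry zinc into the cytosol.

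The promoters of 6 of the 9 genes were found in the RefSeq table (GRCh38.p14). MT1E, MT1F and MT1G had no entry. The 250 bases before each transcription start were searched on both strands for the core of the metal response element, written TGCACNC or TGCGCNC. Capitals below mark the cores. MT2A and MT1X are shown as the metallothioneins whose values are described here, SLC30A1 as the other classical MTF1 target, and MT1H as a metallothionein gene of the same cluster without a single count in these libraries.
MT2A, chr16:56608334-56608583, plus strand: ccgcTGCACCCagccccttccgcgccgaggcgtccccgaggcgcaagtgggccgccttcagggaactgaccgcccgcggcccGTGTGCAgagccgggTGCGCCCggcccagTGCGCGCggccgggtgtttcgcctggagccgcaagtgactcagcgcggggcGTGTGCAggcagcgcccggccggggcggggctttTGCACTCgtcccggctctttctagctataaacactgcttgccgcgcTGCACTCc
MT1X, chr16:56682220-56682469, plus strand: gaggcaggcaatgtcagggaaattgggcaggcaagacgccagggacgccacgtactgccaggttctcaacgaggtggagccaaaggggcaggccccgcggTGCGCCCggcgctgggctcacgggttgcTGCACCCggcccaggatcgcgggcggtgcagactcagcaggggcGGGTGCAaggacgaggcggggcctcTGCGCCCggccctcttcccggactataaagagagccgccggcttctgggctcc
MT1H, chr16:56669564-56669813, plus strand: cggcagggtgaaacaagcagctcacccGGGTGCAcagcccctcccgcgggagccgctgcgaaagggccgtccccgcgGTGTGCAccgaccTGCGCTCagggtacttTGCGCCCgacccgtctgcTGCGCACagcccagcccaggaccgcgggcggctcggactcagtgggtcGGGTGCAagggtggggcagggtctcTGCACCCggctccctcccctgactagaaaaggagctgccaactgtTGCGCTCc
SLC30A1, chr1:211579162-211579411, minus strand: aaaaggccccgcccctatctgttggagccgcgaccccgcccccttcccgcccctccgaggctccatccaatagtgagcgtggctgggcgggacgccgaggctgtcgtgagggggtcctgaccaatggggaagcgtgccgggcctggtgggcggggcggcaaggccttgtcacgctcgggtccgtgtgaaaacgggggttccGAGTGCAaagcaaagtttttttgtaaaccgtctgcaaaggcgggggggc
The MT2A window held 7 cores, that of MT1X 4, that of MT1H 8 and that of SLC30A1 1. Of 35114 promoters in the table, 24.8% held at least 1 core, 0.370% at least 4 and 0.0313% at least 7. The MTF1 window and both SLC39A10 windows held 0, and of 3 SLC39A8 windows 1 held 1. A match is a match of letters and says nothing about binding in these cells.

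The 11 libraries held 18.9 to 41.2 M counted fragments, and 14683 genes entered the test. Combination replicate 1 stood apart from its group. There, 31 of 10041 genes differed by over 2-fold from the other combination libraries, against 2 and 10 in combination replicates 2 and 4 and at most 1 in every DMSO or MI-503 library. Between the combination and MI-503, values without it are given for the 9 genes. For SGK1, SLC7A11 and HMOX1, described below, the range over the alternative settings is given. CPM are counts scaled to TMM-adjusted library size, per 1 M, except that sums over markers use plain library totals. All 9 myeloid markers examined had counts, summing to 1507 to 1581 CPM in DMSO, 2075 to 2197 CPM in MI-503 and 2303 to 4681 CPM in the combination. One of them, CD14, had only 4 to 9, 3 to 6 and 2 to 13 counts per library in these groups and did not enter the test. Of the 8 markers tested, 7 were called higher and 1, FLT3, lower in MI-503 than in DMSO (a gene is called at an edgeR adjusted p under 0.05). In the combination 6 were higher and 1 lower than in DMSO, and 5 were higher and 2 lower than in MI-503. Of all tested genes, 22.0% were called higher and 29.3% lower in MI-503 than in DMSO. For the combination the shares were 31.7% and 32.8% against DMSO, and 23.6% and 23.8% against MI-503. FLT3, a receptor kinase of leukemic blasts, had means of 324, 230 and 193 CPM in DMSO, MI-503 and the combination. LYZ, the lysozyme gene of monocytes, gave 88.0 to 106 CPM, 371 to 381 CPM and 599 to 2513 CPM, and its lowest combination value was that of replicate 1. The markers thus moved with the treatments, in both directions, and their part in the results below was not tested. Markers of T, erythroid and epithelial cells and of fibroblasts summed to at most 1.09 CPM in any library, with CD2 at 0 in all of them. B cell markers summed to 1.69 to 3.83 CPM, with MS4A1 at 0 in every library.

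In DMSO the metallothioneins were the most abundant of the 9 genes per length. Mean FPKM (fragments per kilobase of exon in CPM) was 59.2 for MT2A, 43.2 for MT1X, 42.3 for MT1G, 21.1 for MT1E and 19.9 for MT1F. The transporters followed with 12.7 to 13.6 FPKM over the libraries for SLC39A8, and a mean of 9.67 FPKM for SLC30A1 and 5.77 FPKM for SLC39A10. MTF1 was lowest at 3.47 FPKM. MT1X and MT1G, and likewise MT1E and MT1F, lay within each other's range over the 4 libraries. In the combination the order was another, with SLC30A1 first at 12.5 FPKM, next to MT1X at 12.3 FPKM, whose ranges overlapped. MT2A had moved to the fifth place at 6.96 FPKM and MT1E to the seventh at 3.99 FPKM.

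The 5 metallothionein genes lie in 1 cluster on chromosome 16 of hg38, between bases 56608584 and 56684196. Together they gave 77.7 to 90.0 CPM in the DMSO libraries, 27.3 to 29.7 CPM in the MI-503 libraries and 16.3 to 18.0 CPM in the combination. The groups did not overlap. Mean summed levels were 83.9 ± 5.64 CPM for DMSO (SD, n = 4), 28.8 ± 1.06 CPM for MI-503 (n = 4) and 17.2 ± 0.851 CPM with both agents (n = 3). MI-503 thus left 34.4% of the DMSO level and the combination 20.5%, and the mean of the combination was 1.68 times below that of MI-503. Without combination replicate 1 its mean was 17.6 CPM. In bulk RNA, fewer expressing cells and less RNA per cell cannot be told apart.

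MT2A (chromosome 16, 56608584 to 56609497, plus strand) is the main type 2 metallothionein of most human tissues. It gave 26.9, 19.8, 25.9 and 22.4 CPM in DMSO replicates 1 to 4 and 4.17, 4.65, 5.90 and 5.81 CPM in MI-503 replicates 1 to 4. Combination replicates 1, 2 and 4 gave 2.69, 2.86 and 2.83 CPM. Every DMSO library was above every MI-503 library, and these were all above the combination. Fitted log2 differences from DMSO were −2.21 (SE 0.12) in MI-503 and −3.10 (SE 0.14) in the combination.

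MT1G (56666730 to 56668065, minus strand) is a type 1 metallothionein and, unlike the other 4 genes, lies on the minus strand. DMSO replicates gave 16.6, 19.1, 18.1 and 15.5 CPM, MI-503 replicates 6.16, 7.50, 6.03 and 6.10 CPM, and combination replicates 2.31, 2.56 and 2.46 CPM. All 3 groups were separate, and MI-503 replicate 2 lay above the other libraries of its group. The differences from DMSO were −1.42 (SE 0.09) in MI-503 and −2.84 (SE 0.12) in the combination on the log2 scale.

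MT1E (56625781 to 56627112, plus strand), another type 1 gene, gave 16, 14.8, 17.2 and 14.9 CPM in DMSO and 5.55, 5.20, 5.86 and 6.06 CPM in MI-503. In the combination it gave 2.20, 3.71 and 3.01 CPM, the widest relative spread of the 5 genes in that group. Groups did not overlap, and replicate 1, the library that stood apart, was the lowest. Log2 differences from DMSO were −1.48 (SE 0.11) and −2.46 (SE 0.13), the second being −2.22 without that library.

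MT1X (56682470 to 56684196, plus strand) gave 16.8, 16.4, 19.5 and 17.2 CPM in DMSO, 6.20, 6.77, 5.90 and 6.35 CPM in MI-503 and 5.24, 4.67 and 5.02 CPM in the combination. Here the 2 treated groups were close but still separate. The log2 differences from DMSO were −1.46 (SE 0.08) in MI-503 and −1.80 (SE 0.09) in the combination.

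MT1F (56657943 to 56659303, plus strand) is a type 1 gene too and was, of the 5, the one that differed least from DMSO. It gave 10.7, 10.6, 9.30 and 7.78 CPM in DMSO, 5.18, 5.55, 5.49 and 4.83 CPM in MI-503 and 3.87, 4.21 and 3.94 CPM in the combination, without overlap. Its log2 differences from DMSO were −0.87 (SE 0.11) and −1.27 (SE 0.12).

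**Figure D1:**
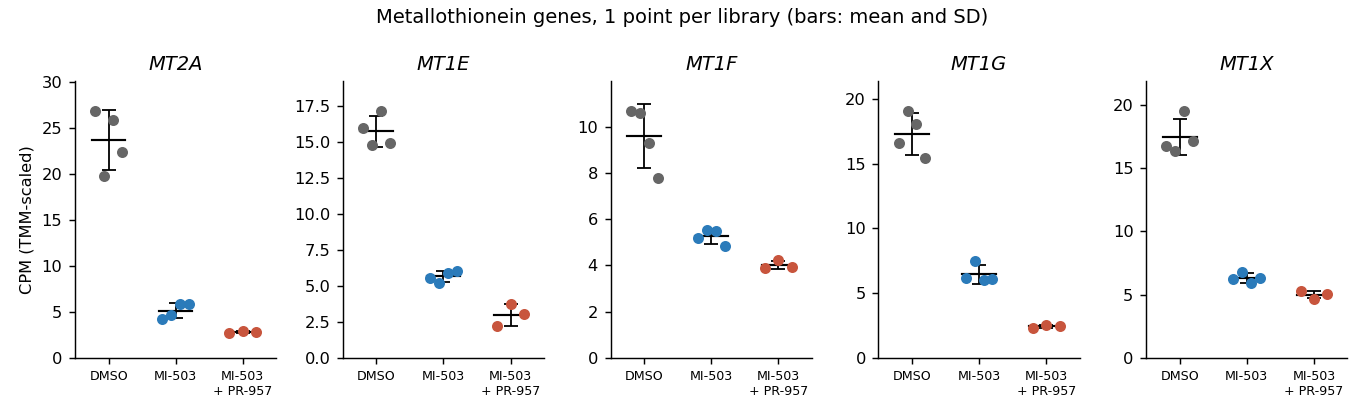
CPM of the 5 metallothionein genes (y axes, each from 0), 1 point per library, in DMSO (n = 4), MI-503 (n = 4) and MI-503 with PR-957 (n = 3); horizontal lines are means and bars are SD. In each panel the 3 groups are separate, from 19.8 to 26.9 CPM for MT2A in DMSO down to 2.69 to 2.86 CPM in the combination.

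For all 5 metallothioneins the groups did not overlap between MI-503 and DMSO or between the combination and DMSO, as for 50.3% and 60.5% of all tested genes. As the genes had been picked on these comparisons, which also share the DMSO libraries, nothing is read from that count. The fitted values ranged from −2.21 to −0.87 in MI-503 and from −3.10 to −1.27 in the combination.

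Reads that fit several near-identical genes are lost here, since fragments aligned to several places were not counted. Of 60-base windows along the exons, 11 of 63 in MT1E (17.5%) also occurred elsewhere in the genome, as did 2 of 24 in MT2A, 2 of 25 in MT1G, 1 of 23 in MT1X and 0 of 32 in MT1F. Levels, by this measure those of MT1E most, are therefore uncertain, with the same windows concerned in every library. Only exact matches of 60 bases within single exons were sought, so these shares are not the shares of fragments lost. No exon base of the 5 genes was shared with another annotated gene.

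The other 12 metallothionein genes and pseudogenes listed (MT1A, MT1B, MT1H, MT1HL1, MT1L, MT1M, MT1DP, MT1JP, MT1IP, MT1CP, MT3 and MT4) did not enter the test. MT1M had 4, 1, 0 and 1 counts in the DMSO libraries, 0 in every MI-503 library and 1, 0 and 0 counts in the combination. MT1IP had 1 count in combination replicate 2. MT1CP has no value here, and the remaining 9 had 0 counts in all 11 libraries. A count of 0 allows up to 3 counts, which is 0.0729 to 0.159 CPM depending on the library. This bound holds only for fragments that align to 1 place, since others were not counted. How much of the exons of these 12 genes also occurs elsewhere was not examined, so their levels are not known beyond that. Nearly all counted fragments of metallothionein genes came from the 5 genes described.

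The make-up of this pool was not the same in the 3 groups. By FPKM, MT2A contributed 31.8% ± 2.98 of the pool in DMSO, 20.4% ± 3.11 in MI-503 and 18.6% ± 0.137 in the combination (SD, n = 4, 4 and 3). MT1F contributed 10.7% ± 1.43, 17.4% ± 1.08 and 22.1% ± 0.460 in the same order. For MT1F the groups did not overlap, and for MT2A the DMSO libraries were above all treated ones. MT1X kept to 23.3% ± 1.45 in DMSO and 24.9% ± 1.33 in MI-503 and stood at 32.9% ± 2.93 in the combination. MT1G was at 22.8% ± 2.28, 25.1% ± 2.23 and 15.9% ± 0.304, lowest in the combination in every library. MT1E stayed near a constant share, with 11.4% ± 0.272, 12.2% ± 0.978 and 10.6% ± 2.39.

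**Figure D2:**
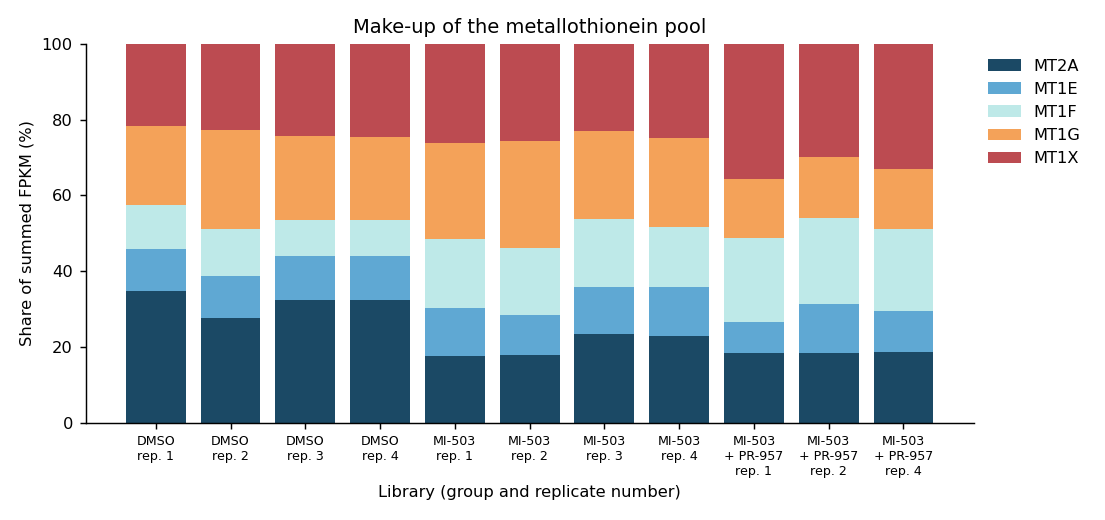
Share of each metallothionein gene in the summed FPKM of the 5 genes (y axis, percent), 1 bar per library. The MT2A segment takes 27.7% to 34.8% in the DMSO libraries and 17.6% to 23.3% in the treated ones, while that of MT1F takes 9.36% to 12.3% in DMSO and 21.7% to 22.6% in the combination.

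The combination was then compared with MI-503 alone. The metallothioneins had been picked for their values against DMSO in these same treated libraries, and earlier results of this comparison were known too, so its tests are no independent support. All 5 metallothioneins were called lower in the combination, where 23.8% of all tested genes were called lower, and their groups did not overlap, which held for 47.6% of all tested genes. MT1G fell most, by 1.42 on the log2 scale (SE 0.12, edgeR adjusted p = 1.16e-07), and only 0.470% of tested genes had a lower value. MT1E changed by −0.98 (SE 0.14, edgeR adjusted p = 2.86e-05) and MT2A by −0.88 (SE 0.15, edgeR adjusted p = 1.66e-04). The changes of MT1F (−0.40, SE 0.12, edgeR adjusted p = 0.0134) and MT1X (−0.34, SE 0.10, edgeR adjusted p = 0.010) were smaller, and neither passed at an adjusted p under 0.01. Without combination replicate 1, MT1E changed by −0.79 (edgeR adjusted p = 3.48e-05) and the other 4 by −1.40 to −0.40, all still called.

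The size of the 2 steps differed from gene to gene. Of the log2 difference between the combination and DMSO, MT1X already had 81.3% in MI-503 alone, MT2A 71.5%, MT1F 68.3% and MT1G 49.9%, with MT1E between the last 2. For MT1G the step from MI-503 to the combination was as large as that from DMSO to MI-503. For MT1X it was the smallest part. These shares come from 1 set of libraries and were not tested against each other.

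MTF1 (chromosome 1, 37809570 to 37859614, minus strand), the activator of metallothionein genes, gave like values in the 3 groups. It gave 32.3, 29.3, 31.3 and 30.4 CPM in DMSO, 31.2, 32.7, 32.9 and 29.9 CPM in MI-503 and 34.4, 30.6 and 30.0 CPM in the combination. The groups overlapped in all 3 comparisons, and the means were 30.8 ± 1.28, 31.7 ± 1.43 and 31.7 ± 2.39 CPM (SD, n = 4, 4 and 3). Its log2 difference between the combination and MI-503 was 0.004 (SE 0.06, edgeR adjusted p = 0.966), with a 95% interval of −0.13 to 0.13. Without combination replicate 1, which was the highest of its group, the value was −0.09 (edgeR adjusted p = 0.213), on the other side of 0.

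SLC30A1 (chromosome 1, 211571568 to 211579161, minus strand), the zinc exporter of the cell surface, was highest in the combination. It gave 59.1, 58.2, 53.5 and 57.0 CPM in DMSO and 49.3, 54.4, 53.3 and 52.0 CPM in MI-503, groups that overlapped. In the combination it gave 72.0, 75.6 and 73.0 CPM, above every library of the other groups. Against MI-503 SLC30A1 rose by 0.49 on the log2 scale (SE 0.05, edgeR adjusted p = 5.0e-07, 95% interval 0.39 to 0.59), where 23.6% of tested genes were called higher, and without combination replicate 1 by 0.48 (edgeR adjusted p = 5.47e-08). SLC30A1 had been taken up after its values were seen, so this test is no independent support. Its log2 differences from DMSO were −0.12 (SE 0.05) in MI-503 and 0.37 (SE 0.05) in the combination. The first moved to −0.0622 with upper-quartile factors and to −0.0544 with a stricter filter, about 1 SE from 0.

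SLC39A8 (chromosome 4, 102251041 to 102345482, minus strand) imports zinc and also manganese. DMSO libraries gave 93.1, 91.5, 92.6 and 97.9 CPM, MI-503 libraries 79.8, 79.5, 85.6 and 87.7 CPM and combination libraries 57.2, 55.1 and 52.0 CPM, without overlap. From MI-503 to the combination SLC39A8 fell by 0.60 on the log2 scale (SE 0.05, edgeR adjusted p = 7.51e-08), and by 0.66 without combination replicate 1 (edgeR adjusted p = 5.6e-10). Only 5.30% of tested genes had a lower value. Its difference from DMSO was −0.17 (SE 0.05) in MI-503 and −0.77 (SE 0.05) in the combination. The first of these moved to −0.11 with upper-quartile factors and to −0.10 with a stricter filter.

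SLC39A10 (chromosome 2, 195575944 to 195737701, plus strand) imports zinc at the surface of blood cells among others. It gave 63.2, 67.2, 57.4 and 66.8 CPM in DMSO, 47.8, 45.0, 41.2 and 42.8 CPM in MI-503 and 37.2, 35.8 and 33.4 CPM in the combination, again without overlap. SLC39A10 fell by 0.31 from MI-503 to the combination (SE 0.07, edgeR adjusted p = 8.07e-04), and by 0.38 without combination replicate 1 (edgeR adjusted p = 6.8e-05). Here 62.6% of the log2 difference from DMSO (−0.84, SE 0.07) was present with MI-503 alone (−0.53, SE 0.06). Of its exon bases 0.888% also belong to DNAH7.

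Taking the 4 genes of zinc sensing and transport side by side, 2 were called lower and 1 higher in the combination than in MI-503, where 23.8% of all tested genes were called lower and 23.6% higher. Both importers were thus lower, and the exporter higher, than in MI-503, and MTF1 was not called.

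**Figure D3:**
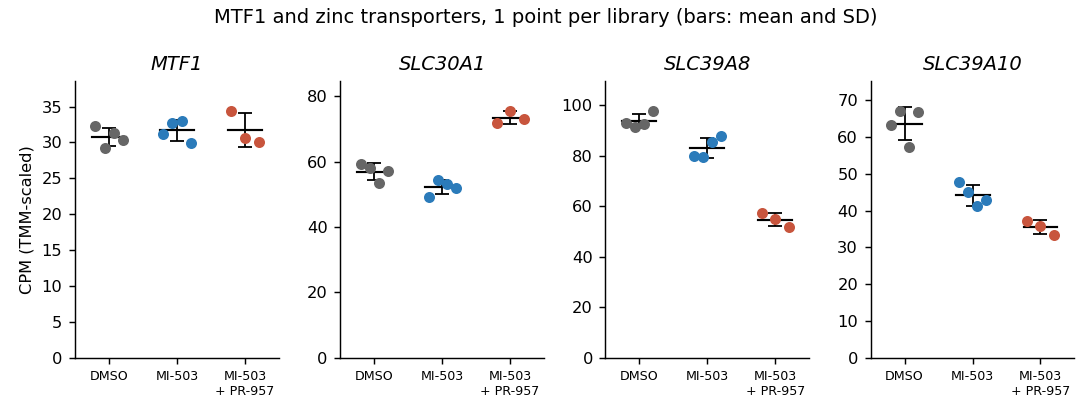
CPM of MTF1, SLC30A1, SLC39A8 and SLC39A10 (y axes, each from 0), 1 point per library, with the mean (line) and SD (bar) of each group (n = 4, 4 and 3). The combination libraries lie at 72.0 to 75.6 CPM for SLC30A1, above all others, and at 52.0 to 57.2 CPM for SLC39A8, below all others, while MTF1 overlaps throughout.

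**Figure D4:**
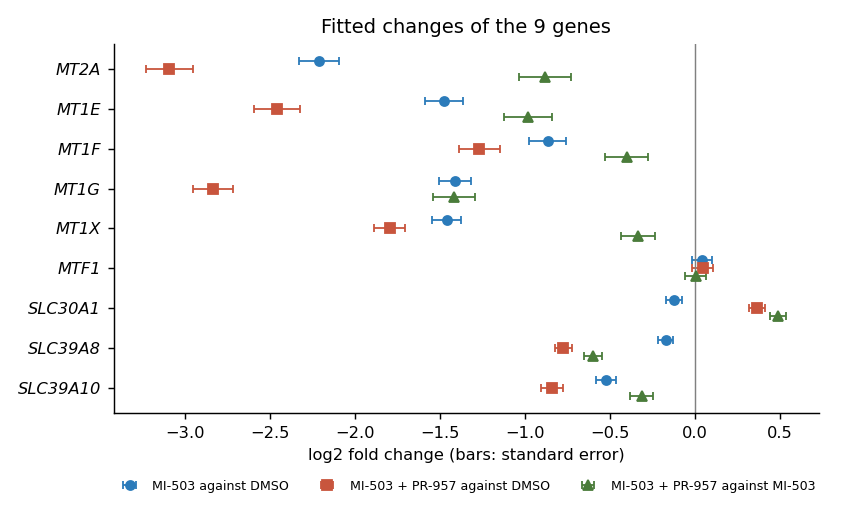
Fitted log2 fold changes of the 9 genes (x axis) in the 3 comparisons, with bars for the standard error. The metallothioneins lie left of 0 in all 3 comparisons, from −3.10 (MT2A, combination against DMSO) to −0.34 (MT1X, combination against MI-503), and SLC30A1 lies right of 0 in the 2 comparisons with PR-957 in the first group.

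The wider zinc transporter families were examined from a list. Of 9 other SLC30 genes 4 were expressed enough to be tested. MI-503 had 3 lower than DMSO, where 29.3% of all tested genes were called lower and 22.0% higher. The third of them, SLC30A6 (−0.14, edgeR adjusted p = 0.0331), lost its call under 15 of 19 alternatives, with values down to −0.072. The combination had 1 higher and 2 lower than DMSO, where 31.7% of all tested genes were called higher and 32.8% lower. Against MI-503 the combination had 1 higher and the other 3 not called, with a median log2 difference of 0.04 beside 0.00 over all tested genes. In that comparison 23.6% of all tested genes were called higher and 23.8% lower. SLC30A6 rose by 0.41 from MI-503 to the combination (SE 0.06, edgeR adjusted p = 1.47e-05). SLC30A9 (−0.11, edgeR adjusted p = 0.0952) and SLC30A7 (0.07, edgeR adjusted p = 0.629) were not called, and 66.7% of the exon bases of SLC30A7 are shared with DPH5, where fragments overlapping both genes were not counted.

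Of 12 other SLC39 genes 8 were tested. MI-503 and the combination each had 2 higher and 4 lower than DMSO, and the combination had 2 higher and 3 lower than MI-503 (median −0.02 beside 0.00 over all tested genes). The shares of all tested genes called higher and lower were 22.0% and 29.3%, 31.7% and 32.8%, and 23.6% and 23.8% in these 3 comparisons. From MI-503 to the combination SLC39A6, an importer of the cell surface, fell by 0.23 (SE 0.05, edgeR adjusted p = 5.7e-04). SLC39A14, which also carries iron, fell by 0.19 (SE 0.05, edgeR adjusted p = 0.00578). SLC39A9 rose by 0.17 (SE 0.05, edgeR adjusted p = 0.0133), a call lost without any 1 of the 3 combination libraries (adjusted p up to 0.0997). The other higher gene, SLC39A13 (0.23, edgeR adjusted p = 0.0294), lost its call under 8 alternatives, 5 of which left out a library (MI-503 replicates 1, 3 and 4 and combination replicates 2 and 4). SLC39A3, the third of the lower genes (−0.19, edgeR adjusted p = 0.035), lost it under 4, among them without MI-503 replicate 3, MI-503 replicate 4 or combination replicate 1. SLC39A7, a zinc channel of the endoplasmic reticulum, had 1 count in DMSO replicate 3 and in MI-503 replicate 2 and 0 elsewhere. Its exons are annotated on 6 contigs, and fragments aligned to several places were not counted, so its level is not known from these counts.

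Copper is bound by metallothioneins too, and 11 copper handling genes were all tested. In MI-503 2 were higher and 4 lower than in DMSO, in the combination 3 were higher and 4 lower, and against MI-503 the combination had 4 higher and 2 lower (median 0.09 beside 0.00). In the same order, 22.0% and 29.3%, 31.7% and 32.8%, and 23.6% and 23.8% of all tested genes were called higher and lower. SOD1, the copper-zinc superoxide dismutase, rose by 0.39 from MI-503 to the combination (SE 0.05, edgeR adjusted p = 3.31e-06), after having been lower in MI-503 than in DMSO by a log2 difference of −0.35 (edgeR adjusted p = 3.39e-06). Between the combination and DMSO SOD1 was not called (0.04, edgeR adjusted p = 0.511). CCS, the chaperone that loads copper into SOD1, rose by 0.44 (SE 0.07, edgeR adjusted p = 7.37e-05). SCO1, which serves copper delivery to cytochrome oxidase, fell by 0.19 (SE 0.04, edgeR adjusted p = 0.00135). The other lower gene, ATOX1, a cytosolic copper chaperone (−0.23, edgeR adjusted p = 0.035), was not called with the replicate block (−0.23, adjusted p = 0.0602), which leaves 1 lower. Leaving out MI-503 replicate 1, MI-503 replicate 3, combination replicate 1 or combination replicate 2 ended the call of ATOX1 as well (adjusted p up to 0.0968). Of the higher genes SLC31A2 lost its call without combination replicate 2 (adjusted p = 0.0513) and ATP7A without combination replicate 1 (adjusted p = 0.0772). ATOX1, SLC31A2 and ATP7A are named for these limits, after their values were seen.

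Genes next to the metallothionein cluster on chromosome 16 were listed to see whether the stretch moved as a whole. Of 9 neighbors 7 were tested. MI-503 had 2 higher and 3 lower than DMSO, and the combination had 1 higher and 3 lower. Between the combination and MI-503 1 was lower and the other 6 were not called, with a median of −0.04 beside 0.00 over all tested genes. The shares of all tested genes called higher and lower were 22.0% and 29.3%, 31.7% and 32.8%, and 23.6% and 23.8% in these 3 comparisons. NUDT21, a subunit of a pre-mRNA cleavage factor, fell by 0.36 (SE 0.04, edgeR adjusted p = 3.67e-06). NLRC5, an activator of MHC class I genes, was not called (−0.12, edgeR adjusted p = 0.0536), though it was under 8 of 19 alternatives. NUP93, a nuclear pore gene on the far side of the cluster, was not called either (−0.11, edgeR adjusted p = 0.087). NUP93 was lower in MI-503 than in DMSO by a log2 difference of −0.26 (edgeR adjusted p = 1.76e-04), and BBS2 on the near side was higher by 0.67 (edgeR adjusted p = 1.72e-06). The values against DMSO and BBS2 were chosen after they were seen. The lowest value of the 7 in any comparison was −0.58, that of NUDT21 in the combination against DMSO, where the metallothioneins ranged from −3.10 to −1.27.

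Glucocorticoids and oxidants are, beside metals, classical inducers of metallothionein genes, and 8 genes responsive to each were listed. Both lists were drawn up with earlier results of these data known, so their tests are no independent support. Of the glucocorticoid-responsive genes MI-503 had 3 higher and 3 lower than DMSO. The numbers were 3 higher and 2 lower for the combination against DMSO and 3 higher and 3 lower for the combination against MI-503 (median −0.14). Shares over all tested genes, higher and lower, were 22.0% and 29.3%, 31.7% and 32.8%, and 23.6% and 23.8% in the same order. TSC22D3, which encodes the leucine zipper protein GILZ, gave 10.7, 11.5, 13.1 and 9.96 CPM in DMSO, 19.1, 18.3, 17.4 and 15.4 CPM in MI-503 and 58.2, 50.0 and 46.5 CPM in the combination. The groups did not overlap, and from MI-503 to the combination TSC22D3 rose by 1.56 (SE 0.09, edgeR adjusted p = 6.58e-10). SGK1, a serum- and glucocorticoid-regulated kinase, rose by 2.02 (SE 0.23, edgeR adjusted p = 2.68e-06), and by 1.76 to 2.33 under the alternatives. In the combination SGK1 gave 4.98 to 11.7 CPM, lowest in replicate 1. NR3C1, the glucocorticoid receptor itself, fell by 0.37 (SE 0.05, edgeR adjusted p = 4.99e-06).

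Of the oxidant-responsive genes 3 were lower in MI-503 than in DMSO and the other 5 were not called, among them GCLM (0.14, edgeR adjusted p = 0.076), which was called under 11 of 19 alternatives. In the combination 6 were higher and 1, NQO1, lower than in DMSO (−0.39, edgeR adjusted p = 0.00404). TXNRD1 was not called there (0.12, edgeR adjusted p = 0.0959), though it was under 6 of 19 alternatives. Both are named after their values were seen. All 8 rose from MI-503 to the combination, with a median of 0.93 beside 0.00 over all tested genes. In the 3 comparisons 22.0% and 29.3%, 31.7% and 32.8%, and 23.6% and 23.8% of all tested genes were called higher and lower. As this list was chosen with earlier results of these data known, its tests are no independent support. GCLM, a subunit of the enzyme that starts glutathione synthesis, rose by 1.16 (SE 0.07, edgeR adjusted p = 5.74e-10) and GCLC, its catalytic partner, by 0.68 (SE 0.06, edgeR adjusted p = 7.62e-08). SLC7A11, the cystine importer, rose by 1.55 (SE 0.21, edgeR adjusted p = 1.73e-05) and OSGIN1 by 1.71 (SE 0.20, edgeR adjusted p = 2.96e-06). SLC7A11 gave 43.6 to 105 CPM in the combination, lowest in replicate 1, and its rise ran from 1.29 to 1.85 under the alternatives. HMOX1, heme oxygenase 1, gave 0.407 to 0.826 CPM in MI-503 and 7.98, 89.3 and 47.4 CPM in combination replicates 1, 2 and 4. HMOX1 rose by 6.50 (SE 0.69, edgeR adjusted p = 1.03e-06), and by 5.67 to 6.99 under the alternatives. Its 3 combination libraries lay far apart. In the same libraries MT2A lay between 2.69 and 2.86 CPM and MT1E between 2.20 and 3.71 CPM. These were the narrowest and the widest relative spread of the 5 metallothioneins.

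**Figure D5:**
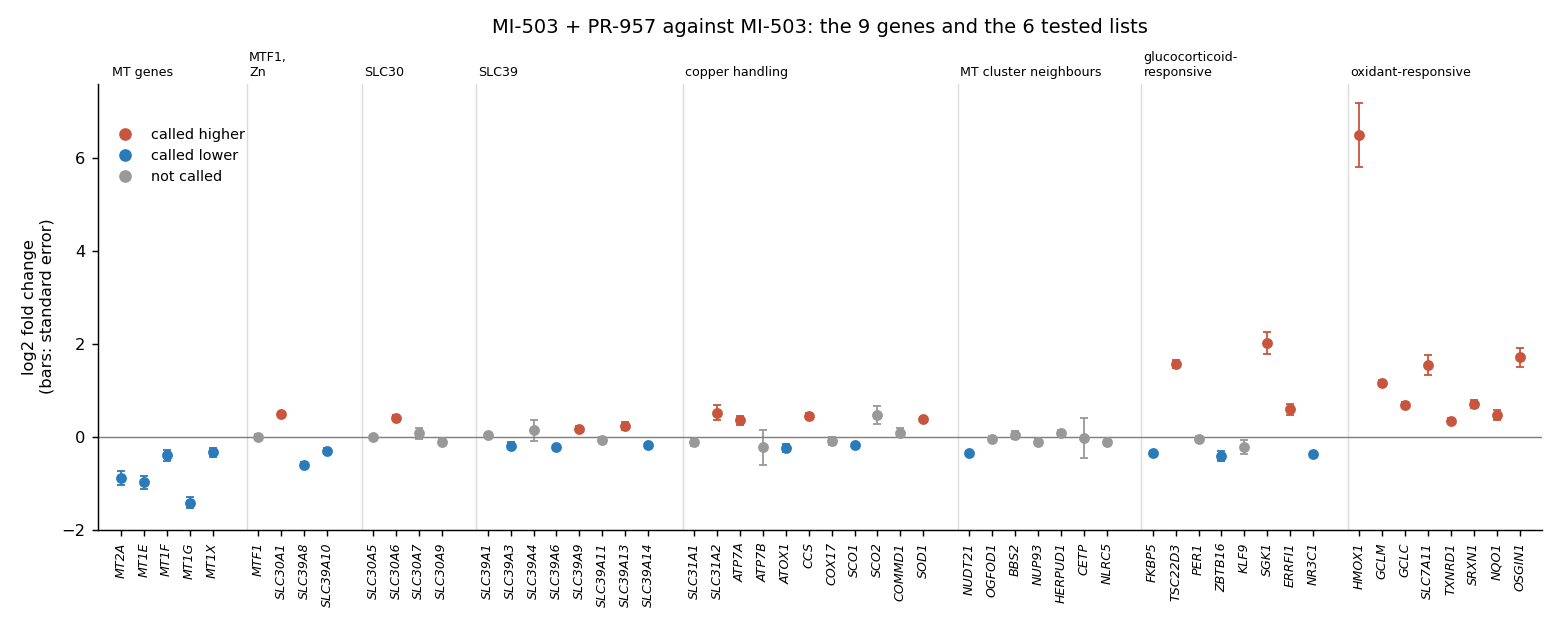
Log2 fold change of the combination against MI-503 (y axis, bars for the standard error) for the 9 genes and for the tested genes of 6 lists; red marks genes called higher, blue lower and grey not called. All 8 oxidant-responsive genes lie above 0, up to 6.50 for HMOX1, and all 5 metallothioneins below it, down to −1.42 for MT1G.

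Genes with a profile most like that of the summed metallothioneins were sought among the 10032 genes whose mean was 5 CPM or more. The measure was the root mean square difference of log2 CPM over the 11 libraries, each profile centered on its own mean. MIR1915HG, a host transcript of a microRNA, came first with a difference of 0.115, followed by MBNL1-AS1 (0.154), NR2F1 (0.189), RGS16 (0.199) and MEF2C (0.235). MIR1915HG gave 57.8 ± 3.31 CPM in DMSO, 22.8 ± 0.699 CPM in MI-503 and 12.3 ± 0.828 CPM in the combination (SD, n = 4, 4 and 3). NR2F1, a nuclear receptor, gave 79.1 ± 5.72, 31.3 ± 1.78 and 17.7 ± 3.84 CPM, and MEF2C, a transcription factor of the MEF2 family, 204 ± 9.90, 51.9 ± 2.35 and 37.4 ± 6.35 CPM. Among the 5 metallothioneins themselves MT1E was nearest to the sum (0.167) and MT1F farthest (0.440). MBNL1-AS1 is named as an antisense gene, and counting took no account of strand, so its values are uncertain. The 11 points fall into 3 groups and share their libraries, so this likeness is a description.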

How the data were processed

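The 11 libraries had been prepared from MOLM-13 RNA with the TruSeq RNA kit for paired-end sequencing. What the authors deposited are raw counts of fragments for each gene, not normalized. Per the submitters' processing notes and the file headers, the authors trimmed reads with Trimmomatic 0.39, aligned them to hg38 with STAR 2.7.10a and counted with featureCounts 2.0.1 on RefSeq exons, without regard to strand. Fragments aligned to several places or overlapping several genes were not counted, which lowers counts of genes with near-identical copies. Alignments had been filtered before counting, by a rule that those sources do not give. Tables in which the authors' own comparisons are deposited (log2 fold changes, p-values) were not used.

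Counts were analyzed with edgeR 4.0.16 in R 4.3.3 (quasi-likelihood test, two-sided, all 11 libraries in 1 model with a mean per group, TMM factors 0.956 to 1.06, 8 residual degrees of freedom). Of 38557 genes, 14683 passed filterByExpr (minimum count 10, minimum total 15, large n 10). P-values were adjusted by Benjamini-Hochberg over all of them, and calls were made at an adjusted p under 0.05. SE is that of the fitted log2 fold change. CPM use TMM-scaled totals, and FPKM are CPM per kilobase of counted exon length. Sums over markers and the bound for a count of 0 use plain library totals. The script was tested on simulated data. Figures were drawn with matplotlib 3.10.9. Alternatives were RLE and upper-quartile factors, no filter, a stricter filter (at least 1 CPM in at least 3 libraries and a mean of at least 5 CPM), DESeq2 1.42.0, limma-voom (limma 3.58.1), a replicate block, only the 2 groups compared, and leaving out each library.

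Groups came from the labels. Deviations of same-numbered libraries from their group means correlated at 0.141, 0.149 and 0.211 between the combination and MI-503. All 3 exceed 0.1, so the replicate numbers were taken to pair these libraries, although nothing in the labels says so and the highest correlation between different numbers was 0.269. The main tests carry no such pairing, which enters only through the replicate block among the alternatives.

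The 9 genes and all lists were chosen with earlier results of these data known, SLC30A1 and the oxidant-responsive genes among them. From each list the text names the genes called beyond a log2 fold change of 1 in any comparison and the 3 with the smallest adjusted p between the combination and MI-503. The 5 genes of nearest profile were named as well, and exceptions are stated. A gene of the lists is not reported here.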

Additional observations from a re-analysis of the deposited data

Results flagged for a closer look

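Among the 20 groups of 4 libraries examined for a library far from the others, 1 stood out. MT1G gave 7.50 CPM in MI-503 replicate 2, against 6.03 to 6.16 CPM in the other MI-503 libraries, a gap larger than the critical value of Dixon's test at 95%. Chance alone flags about 1 in 20 such groups. Without MI-503 replicate 2 MT1G stayed called lower in the combination than in MI-503.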

How the results depend on the processing

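The counts of called genes and of called list genes in all 3 comparisons, and of called zinc and metallothionein genes between the combination and MI-503, stayed within 1.5 times their values under all 19 alternatives, and the 8 of 9 genes called between the combination and MI-503 stayed called in the same direction. Their weakest values were adjusted p = 0.0398 for MT1F and 0.0369 for MT1X. At an adjusted p under 0.01, 6 of the 8 passed. MTF1, not called, changed sign to −0.013 with RLE factors and −0.0122 with DESeq2, and ranged from −0.0929 to 0.023 with libraries left out.

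With the replicate block MT2A changed by −0.85 (adjusted p = 2.65e-04) between the combination and MI-503, and the block changed no call among the 9 genes there. Among the list genes in that comparison it ended the call of ATOX1. Between MI-503 and DMSO the correlations of same-numbered libraries ran from −0.252 to 0.285, and between the combination and DMSO from −0.0601 to 0.110, so those libraries share only a number. The block gave 7630 and 9312 calls there, against 7542 and 9472.

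Scaling moved the balance between directions. Higher genes made up 42.9% of the calls between MI-503 and DMSO with TMM factors and 54.2% with upper-quartile factors.

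Of 27 list genes called between the combination and MI-503, 6 lost the call under some alternative, as did 3 of 29 and 2 of 32 in the comparisons with DMSO. SLC30A6, called lower in MI-503 than in DMSO (−0.14), lost that call under 15 alternatives (adjusted p up to 0.236). The cause was not tested. The other metallothionein genes had at most 4 counts in a library, so their levels could not be compared, and why they were that low was not tested.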
